A study of Mus musculus with 12 samples.

Results

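The comparison described here removed the last STING allele from Trex1-deficient mouse hearts. It set the 2 arrays labelled with the genotype Trex-/- STING-/- (double-deficient hearts) against the 2 arrays labelled Trex-/- STING+/-, so 4 of the 12 arrays of the series carry it. The other 8 arrays are 2 each of Trex1-/- STING+/+, Trex1+/+ STING-/-, Trex1+/+ STING+/- and Trex1+/+ STING+/+ hearts. All mice were untreated and of mixed C57BL6/129Sv strain, and total RNA of the heart was hybridised to Illumina bead arrays with 1 colour. The labels give neither age nor sex, and do not say whether the 2 arrays of a group came from separate mice, so p-values measure only the spread between these arrays, which may be technical. The labels give no cell type or promoter to which either deletion is limited.

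TREX1 is a cytosolic exonuclease that degrades DNA. Where it is missing, DNA can accumulate in the cytosol, where cGAS binds it and makes cGAMP, the messenger that activates the adaptor STING. STING then drives type I interferon through TBK1 and IRF3, and secreted interferon induces a large set of genes that act against viruses. Trex1-deficient mice are known for an inflammatory heart disease that depends on this pathway. Comparing STING-/- with STING+/- on this background asks which transcripts a single STING allele sustains. In whole-heart RNA, fewer cells of a type and less RNA per cell cannot be told apart.

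Across 15561 features, each the brightest probe of a gene or a probe without a gene name, limma called 211 different between double-deficient and Trex1-/- STING+/- hearts at an adjusted p under 0.05 (1.36% of all tested). Of these, 189 were lower (1.21%) and 22 higher (0.141%) in double-deficient hearts. The lowered features were led by interferon-stimulated genes, and their median difference was -2.34 on the log2 scale, against a median of 0.03 over all 15561 features. At an unadjusted p under 0.05 limma counted 1500 features. Of the 189 lowered features, 52 were not well above background on either double-deficient array, so for those the array gives only a lower bound on the fall. The counts depended on single arrays: limma called 67 features without array 2 of the double-deficient group, 65 without array 1 of the Trex1-/- STING+/- group and 323 without array 2 of that group, and without array 1 of the double-deficient group 181 of 294 calls were higher rather than lower.

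**Figure D1:**
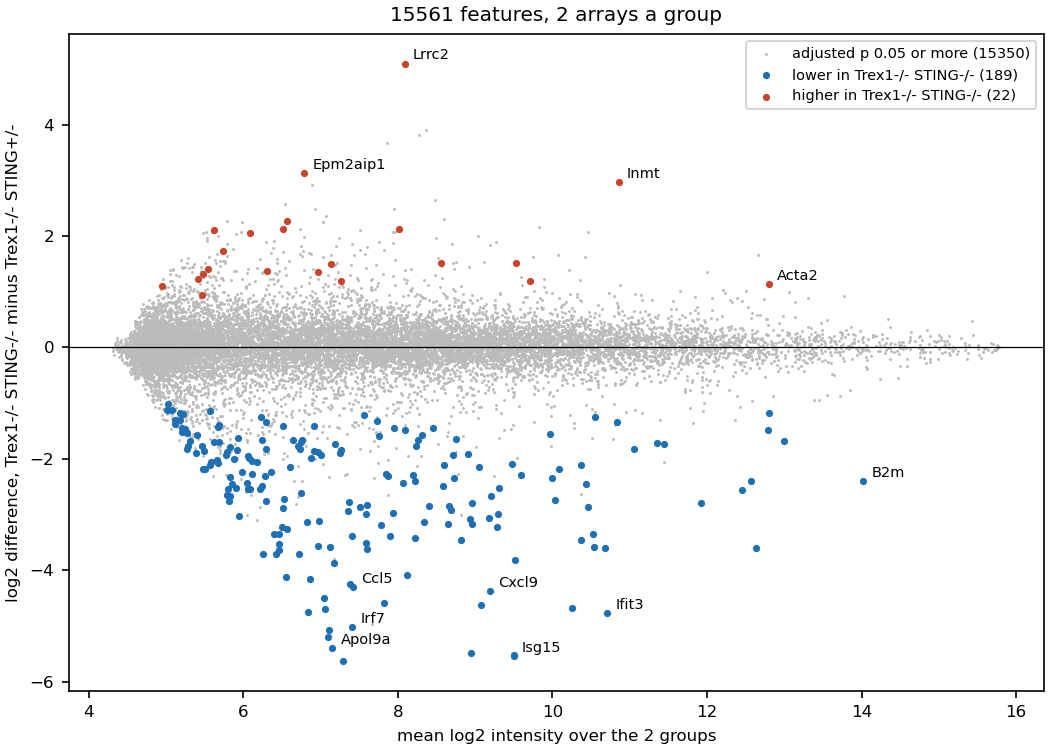
Log2 difference of each feature (double-deficient minus Trex1-/- STING+/- hearts, vertical axis) against its mean log2 intensity over both groups (horizontal axis), 1 point a feature. Called features are coloured, 189 lower and 22 higher, with Isg15 at -5.53 among the deepest falls and Lrrc2 at 5.09 the highest rise.

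Before the genes, the arrays themselves were examined. Title, source and genotype labels give STING+/- for both arrays of that group, whereas the description label of those 2 arrays gives another STING genotype, STING+/+. The description disagreed with the other labels for 7 of the 12 arrays and for 0 of the 2 double-deficient ones. The Sting1 probe read 4.72 and 5.02 on the double-deficient arrays and 5.75 and 5.05 on the Trex1-/- STING+/- arrays, near the lowest signal called detected, and the difference did not pass the test (-0.53 ± 0.29, SE, limma adjusted p = 0.636). The Trex1 probe with the highest signal read 6.80 and 6.87 on the double-deficient arrays and 6.79 and 7.30 on the Trex1-/- STING+/- arrays. A second Trex1 probe read 5.38 and 5.68 against 5.55 and 5.65 in the same order, below its 6.53 to 7.34 on the 6 Trex1+/+ arrays. On the 2 Trex1-/- STING+/+ arrays it read 5.60 and 6.76, where the Sting1 probe read 7.03 and 6.94. No source used here places these probes inside or outside the deleted parts, so they do not check the labels. All 4 arrays carried the Y-linked transcript Eif2s3y (9.79 to 10.18) and none was above background for Xist. Among the other 8 arrays 4 showed the opposite pattern, both of Trex1+/+ STING+/+, array 2 of Trex1-/- STING+/+ and array 1 of Trex1+/+ STING-/-, on which Xist read 8.93 to 9.97 and Eif2s3y 4.35 to 4.45. Of the genes called between double-deficient and Trex1-/- STING+/- hearts, 79 had further probes on the array. Of these 109 probes 108 had the same sign as the probe used, but only 69 with a difference over 1 on the log2 scale.

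Tissue content differed between arrays. The mean log2 level of 10 atrial markers was 7.37 and 11.82 on the double-deficient arrays and 7.49 and 9.00 on the Trex1-/- STING+/- arrays. That of 5 adipocyte markers was 4.79 and 8.12 in double-deficient hearts and 4.78 and 5.30 in Trex1-/- STING+/- hearts. Array 2 of the double-deficient group thus stood apart for both tissues. Conversely, 6 liver and blood-borne transcripts averaged 5.53 and 5.51 in double-deficient hearts and 9.59 and 5.78 in Trex1-/- STING+/- hearts, where the urinary protein gene Mup2 read 12.49 and 7.82, against 5.25 and 5.13 in double-deficient hearts. With the atrial mean as a covariate limma called 118 features, and without array 2 of both groups, the higher of each pair for atrial markers, it called 184. Myl3, the ventricular essential myosin light chain, read 15.75 and 15.83 on the double-deficient arrays and 15.80 and 15.76 on the Trex1-/- STING+/- arrays. These values lie near the top of the arrays' range, so they do not measure the share of ventricular muscle.

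Of the 20 largest named falls, 15 have a promoter in the RefSeq table and 8 of these hold a motif of interferon response, and 4 of the 8 are shown to let the letters be seen. Irf7, Plac8, Cxcl9, Oasl1, H2-Q6, Ifit2 and Vmn1r65 have a promoter in the table without it. The interferon-stimulated response element (ISRE) is bound by proteins of the IRF family, and was searched as its core GAAANNGAAA on both strands in the 250 bases before each RefSeq gene start (GRCm38.p6). Capitals mark every match, and matches that overlap are merged into a single run. The 4 promoters are those of an ubiquitin-like modifier (Isg15), an apolipoprotein L gene (Apol9a), an RNA-binding antiviral gene (Ifit3) and a GTPase gene (Igtp), each printed 5′ to 3′ on the strand of its gene.
Isg15, chr4:156200819-156201068, reverse strand: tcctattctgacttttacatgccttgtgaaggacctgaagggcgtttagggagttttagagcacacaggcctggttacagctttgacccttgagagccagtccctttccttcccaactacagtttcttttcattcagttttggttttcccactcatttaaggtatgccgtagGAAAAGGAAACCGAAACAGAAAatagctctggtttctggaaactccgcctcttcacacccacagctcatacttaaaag
Apol9a, chr15:77411081-77411330, reverse strand: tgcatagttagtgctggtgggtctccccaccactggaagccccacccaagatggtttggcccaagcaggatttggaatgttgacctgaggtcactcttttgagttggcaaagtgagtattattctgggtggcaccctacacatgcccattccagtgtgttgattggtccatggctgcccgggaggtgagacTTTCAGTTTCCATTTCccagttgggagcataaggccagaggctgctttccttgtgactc
Ifit3, chr19:34583279-34583528, forward strand: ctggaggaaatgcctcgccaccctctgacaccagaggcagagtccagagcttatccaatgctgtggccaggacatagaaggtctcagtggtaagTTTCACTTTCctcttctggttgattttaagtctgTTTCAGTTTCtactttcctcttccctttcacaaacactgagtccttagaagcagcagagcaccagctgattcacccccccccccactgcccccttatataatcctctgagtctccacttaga
Igtp, chr11:58199306-58199555, forward strand: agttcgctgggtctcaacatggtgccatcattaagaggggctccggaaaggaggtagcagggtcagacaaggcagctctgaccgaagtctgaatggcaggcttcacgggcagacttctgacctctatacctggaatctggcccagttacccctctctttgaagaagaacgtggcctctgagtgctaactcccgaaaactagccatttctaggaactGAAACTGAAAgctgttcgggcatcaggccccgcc
Isg15 holds 3 overlapping matches, which begin 78, 72 and 66 bases before the start. Apol9a holds 2 overlapping matches on the opposite strand, and Ifit3 holds 2 separate ones, also on the opposite strand, whose first bases lie 156 and 122 bases before the start. The match of Igtp begins 34 bases before the start.

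Of the 163 lowered genes with a symbol, 124 matched a promoter in the RefSeq table, and 32 of those (25.8%) held the ISRE core. Among all 27025 genes of the table the share was 3.46%, and among the 9746 tested genes found in it 3.38%. Of the 17 genes called higher, 11 matched a promoter and 0 of 11 held the core. A match is a description of the letters in this window and does not show binding.

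The deepest falls belonged to interferon-stimulated genes. Isg15, whose product is conjugated to other proteins in infected or interferon-treated cells, read 6.60 and 6.86 log2 units on the double-deficient arrays and 12.85 and 11.68 on the Trex1-/- STING+/- arrays. Both double-deficient arrays were far below both STING+/- arrays, a difference of -5.53 ± 0.49 (SE, 2 arrays a group, limma adjusted p = 0.000676) or 46.3-fold. Usp18, the protease that removes ISG15 and restrains the interferon receptor, read 6.83 and 6.65 in double-deficient hearts and 12.74 and 11.79 in Trex1-/- STING+/- hearts (-5.52 ± 0.36, limma adjusted p = 0.000156). Irf7, the transcription factor that amplifies interferon production, read 5.09 and 4.71 against 10.54 and 9.31 in the same order, and was above background on 1 of the 2 double-deficient arrays (-5.02 ± 0.49, limma adjusted p = 0.000958). The rule that named the largest falls required that the groups not overlap, so their separation is a description and adds no support.

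Further antiviral effectors followed. Ifit3 read 8.26 and 8.39 in double-deficient hearts and 13.69 and 12.50 in Trex1-/- STING+/- hearts, a 27.3-fold difference, and Ifit2, of the same family, 7.78 and 7.45 against 12.02 and 10.82. Oasl1, which in mice holds back translation of IRF7, was not well above background on either double-deficient array (4.87 and 4.71) and read 9.46 and 8.41 in Trex1-/- STING+/- hearts, at least 15.8-fold lower in double-deficient hearts. Oas1g, of the oligoadenylate synthetases that make the activator of RNase L, read 5.96 and 5.62 against 9.93 and 8.89 (-3.62 ± 0.32, limma adjusted p = 0.000676).

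The apolipoprotein L genes Apol9a and Apol9b, interferon-induced in mice, were not well above background without STING. Apol9a read 4.42 and 4.49 on the double-deficient arrays and 10.40 and 9.29 on the Trex1-/- STING+/- arrays, at least 29.6-fold lower (limma adjusted p = 0.000156). Apol9b read 4.58 and 4.85 against 10.07 and 8.73, at least 21.8-fold lower. The sequences of these neighbours are close to each other, so their probes may share signal. Batf2, a transcription factor induced by interferon in myeloid cells, read 4.63 and 4.66 in double-deficient hearts and 8.44 and 8.12 in Trex1-/- STING+/- hearts, at least 9.99-fold lower. A probe that the platform assigns to Vmn1r65, a vomeronasal receptor gene, was also at least 19.2-fold lower in double-deficient hearts, where it read 4.42 and 4.51, against 9.90 and 8.54 in Trex1-/- STING+/- hearts. Its call was lost without array 2 of the double-deficient group and without array 1 of the STING+/- group.

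As a group, 24 of the 38 measured interferon-stimulated effectors were lower, 0 were higher and the median of all 38 was -2.31 on the log2 scale (-2.23 with undetected members at their bound). All 38 differences were negative, and 34 had an unadjusted p under 0.05. The mean level of the list was 6.58 and 6.61 on the double-deficient arrays and 9.59 and 8.72 on the Trex1-/- STING+/- arrays. Without array 2 of the double-deficient group 12 members were called, and without array 1 of the STING+/- group 13. A gene known only by a predicted name, Gm4951, had the largest fitted fall of all features with a symbol: it read 4.46 and 4.50 in double-deficient hearts, not well above background, and 10.96 and 9.26 in Trex1-/- STING+/- hearts, at least 35.6-fold lower, while its other probe differed by -0.52. It was chosen after its values were seen, as were B2m, Ifnb1, Il15, Csf1r, Mrc1, Cx3cr1, Ms4a7, Mpeg1 and Cd163 below.

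**Figure D2:**
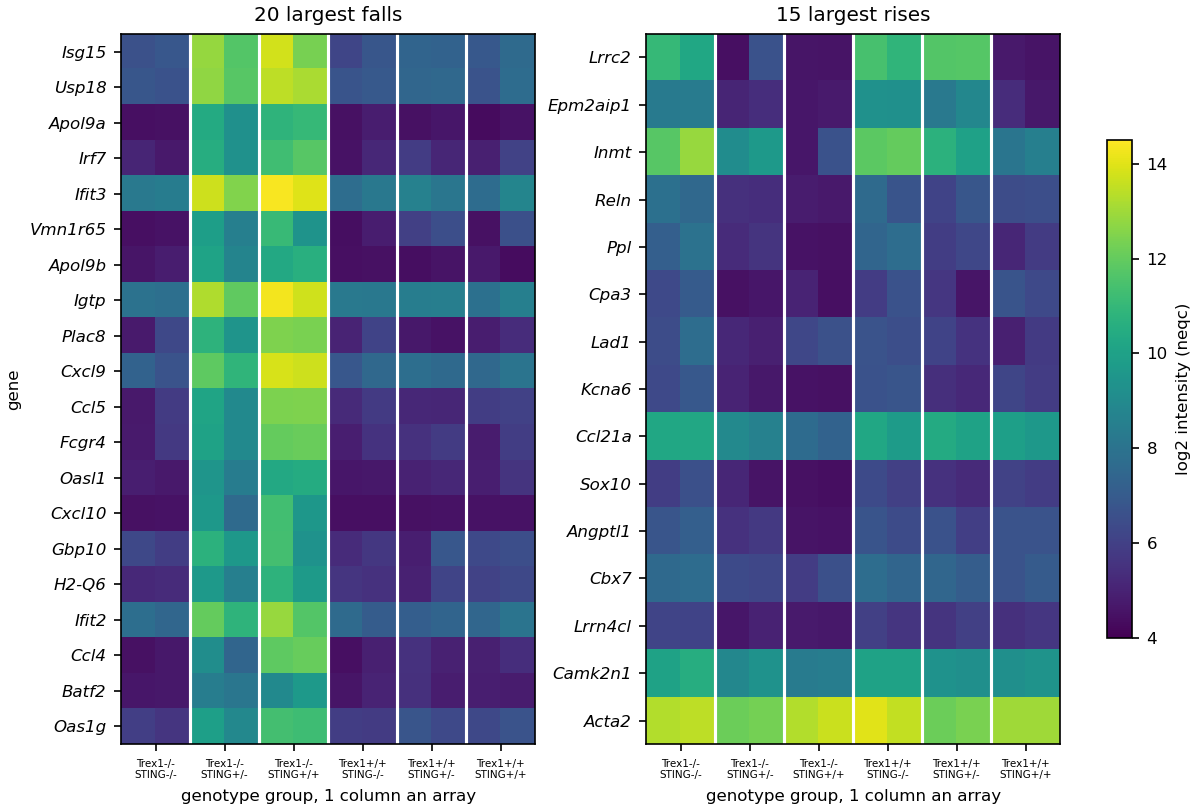
Log2 intensity (colour scale) of the 20 genes with the largest falls (left) and the 15 with the largest rises (right), 1 column for each of the 12 arrays and pairs of columns by genotype. Isg15, for example, reads 6.60 and 6.86 on the double-deficient arrays and 12.85 and 11.68 on the Trex1-/- STING+/- arrays, and Lrrc2 and Epm2aip1 separate 6 low from 6 high arrays.

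The interferon-inducible GTPases, which attack the vacuoles of intracellular microbes, showed the same direction: 9 of 13 measured were lower, 0 higher, with a median of -2.30. Igtp, of the immunity-related GTPases, read 7.97 and 7.85 in double-deficient hearts and 13.24 and 11.93 in Trex1-/- STING+/- hearts (-4.68 ± 0.39, limma adjusted p = 0.000513). Irgm2 read 8.69 and 8.79 against 13.01 and 11.65, and Ifi47 read 5.92 and 5.76 against 10.05 and 8.63, both in the same order. Gbp10, a guanylate-binding protein gene, read 6.26 and 5.91 in double-deficient hearts and 10.74 and 9.59 in Trex1-/- STING+/- hearts (-4.08 ± 0.71, limma adjusted p = 0.0219). The count fell to 2 without array 2 of the double-deficient group and to 4 without array 1 of the STING+/- group. Irgm2 and Gbp10 were called in neither case, and Gbp10 was also lost without array 1 of the double-deficient group.

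MHC class I presentation, through which cells display peptides to CD8+ T cells, was lower from its regulator to its structural chains. Nlrc5, the transactivator of class I genes, was not well above background on the double-deficient arrays (4.36 and 4.50) and read 7.97 and 6.94 in Trex1-/- STING+/- hearts, at least 5.66-fold lower. H2-Q6, a non-classical class I gene, read 5.19 and 5.29 in double-deficient hearts and 9.69 and 8.54 in Trex1-/- STING+/- hearts (-3.87 ± 0.47, limma adjusted p = 0.00321). H2-T10 read 6.34 and 6.55 against 9.77 and 9.07, and H2-Q7 read 6.70 and 7.27 against 10.25 and 9.40. These class I genes are near copies of each other, and their probes may cross-hybridise. In all, 11 of 20 measured members were lower, 0 higher and the median was -2.43, with 7 called without array 2 of the double-deficient group and 7 without array 1 of the STING+/- group. B2m, the common light chain of class I molecules and among the brightest lowered genes, read 12.66 and 12.98 in double-deficient hearts and 15.46 and 14.98 in Trex1-/- STING+/- hearts (-2.40 ± 0.22, limma adjusted p = 0.000757).

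Several genes that sense nucleic acids or carry the interferon signal were lower. Of 17 genes of interferon and JAK-STAT signalling 4 were lower, 0 higher, with a median of -0.40. Besides Usp18 and Irf7 these were Irf9, the DNA-binding subunit of the interferon-stimulated factor, which read 7.86 and 8.06 in double-deficient hearts and 10.16 and 9.58 in Trex1-/- STING+/- hearts (-1.91 ± 0.25, limma adjusted p = 0.00529), and its partner Stat2, at 5.94 and 5.91 against 7.99 and 7.20. Of 7 RNA sensing genes 2 were lower (median -1.35). Dhx58, an RNA helicase related to RIG-I, was not well above background without STING (4.98 and 4.86, against 8.22 and 7.15 in Trex1-/- STING+/- hearts, at least 6.61-fold lower), and Tlr3, the endosomal receptor for double-stranded RNA, read 4.96 and 5.03 against 6.66 and 6.10.

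Of 19 cytosolic DNA sensing genes 3 were lower, 0 higher, and the median was -0.22. Cgas, the sensor upstream of STING, read 5.65 and 5.95 in double-deficient hearts and 7.57 and 6.86 in Trex1-/- STING+/- hearts (-1.41 ± 0.29, limma adjusted p = 0.0487). A second Cgas probe differed by -0.09 between the same groups, so the fall rests on 1 probe. Mndal, of the HIN-200 family, read 6.10 and 5.89 against 8.13 and 7.56. Samhd1, which degrades deoxynucleotides, read 7.65 and 7.41 against 9.45 and 8.76. The calls of Cgas, Mndal, Samhd1, Stat2, Dhx58 and Tlr3 were each lost without array 2 of the double-deficient group. Each was also lost without array 1 of the STING+/- group, as was the call of Irf9. The calls of Cgas and Tlr3 were also lost without array 1 of the double-deficient group. Without array 1 of the STING+/- group, 2 signalling genes, 0 RNA sensing genes and 0 DNA sensing genes were called.

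Chemokines carry leukocytes into tissue, and 7 of 20 measured were lower and 1 higher (median -1.22, or -0.87 with undetected members at their bound). Cxcl9, a ligand of CXCR3 on activated T cells, read 7.31 and 6.70 in double-deficient hearts and 11.90 and 10.85 in Trex1-/- STING+/- hearts (-4.37 ± 0.38, limma adjusted p = 0.00057). Its relative Cxcl10 was not well above background without STING (4.45 and 4.53, against 9.59 and 7.63 in Trex1-/- STING+/- hearts, at least 12.6-fold lower). Ccl5 and Ccl4 attract T cells and monocytes. Ccl5 read 4.71 and 5.83 in double-deficient hearts and 10.15 and 8.98 in Trex1-/- STING+/- hearts (-4.30 ± 0.42, limma adjusted p = 0.000958). Ccl4 read 4.46 and 4.69 against 9.14 and 7.42, at least 9.99-fold lower. The 1 chemokine called higher was Ccl21a, the CCR7 ligand of lymphatic vessels. It read 10.25 and 10.31 in double-deficient hearts and 8.93 and 8.62 in Trex1-/- STING+/- hearts (1.51 ± 0.25, limma adjusted p = 0.0161). Of the 20 differences 15 were negative, and Ccl11 had a larger positive one (2.26) that was not called. The count of lowered chemokines was 4 without array 1 of the double-deficient group, 4 without its array 2 and 3 without array 1 of the STING+/- group. The call of Ccl21a was lost whichever of the 4 arrays was left out, and that of Cxcl10 without array 2 of the double-deficient group or array 1 of the STING+/- group.

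Few cytokine genes passed the test. Of 21 genes of the list of cytokines and NF-kappaB targets 1 was lower, 0 higher, with a median of -0.73, while 7 were lower at an unadjusted p under 0.05. On the double-deficient arrays 8 were not above background on either array, and on the Trex1-/- STING+/- arrays 4. A fall is only a bound where the double-deficient arrays alone were at background, and none was measured where both groups were. The called gene was Cd40, the receptor for T cell help, which read 6.28 and 6.16 in double-deficient hearts and 7.95 and 7.31 in Trex1-/- STING+/- hearts (-1.41 ± 0.27, limma adjusted p = 0.0338). Its call was lost when array 1 or array 2 of the double-deficient group, or array 1 of the STING+/- group, was left out, and 3 members were called without array 2 of the STING+/- group. Further Cd40 probes differed by -0.11, -0.13 and -0.97. Il15, which sustains NK and memory T cells, read 7.37 and 7.27 in double-deficient hearts and 10.04 and 10.61 in Trex1-/- STING+/- hearts and did not pass (SE 1.32, limma adjusted p = 0.505). Ifnb1, which encodes interferon beta, was above background on none of the 4 arrays. Of 9 complement genes only Cfb, factor B of the alternative pathway, was called: it read 4.52 and 5.07 against 8.78 and 7.49 (-3.34 ± 0.40, limma adjusted p = 0.003), while all 9 differences were negative (median -1.53).

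Markers of leukocytes were lower in part. Of 21 macrophage and monocyte markers 4 were lower, 0 higher, with a median of -1.35. Plac8, a small protein of monocytes and lymphocytes, read 4.76 and 6.29 in double-deficient hearts and 10.79 and 9.45 in Trex1-/- STING+/- hearts (-4.59 ± 0.55, limma adjusted p = 0.0032). Fcgr4 and Fcgr1 encode activating receptors for immunoglobulin G. Fcgr4 read 4.78 and 5.75 in double-deficient hearts and 10.03 and 8.97 in Trex1-/- STING+/- hearts (-4.24 ± 0.46, limma adjusted p = 0.00193). Fcgr1 read 4.69 and 5.06 against 7.33 and 6.87, and Ms4a6d read 7.19 and 7.89 against 9.63 and 9.69. The 17 members that did not pass ranged from -2.69 to 2.49, and in all 13 of the 21 were lower and 1 higher at an unadjusted p under 0.05. Cx3cr1, the fractalkine receptor, read 5.13 and 5.60 in double-deficient hearts and 8.82 and 7.29 in Trex1-/- STING+/- hearts (-2.69 ± 0.58, limma adjusted p = 0.0596). Ms4a7 (-2.65) and Mpeg1 (-2.12) lay close to the threshold as well, at limma adjusted p = 0.0502 and 0.0539. Cd163, the haemoglobin scavenger receptor, read 8.98 and 9.42 in double-deficient hearts and 5.04 and 8.38 in Trex1-/- STING+/- hearts (2.49 ± 0.86, limma adjusted p = 0.298). Smaller differences were seen for Csf1r and Mrc1: Csf1r, the receptor for the macrophage growth factor, read 8.26 and 8.82 in double-deficient hearts and 8.76 and 8.59 in Trex1-/- STING+/- hearts, and Mrc1, of resident macrophages, 8.66 and 8.89 against 9.19 and 8.91. The whole list averaged 7.09 and 7.84 on the double-deficient arrays and 8.93 and 8.61 on the Trex1-/- STING+/- arrays. Without array 2 of the STING+/- group 8 members were called, and the call of Ms4a6d was lost without array 1 of that group. The part of cell number in these falls was not tested.

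Lymphocyte markers gave few calls. Of 13 T and NK cell markers 2 were lower, 0 higher (median -0.58, or -0.40 with undetected members at their bound). Nkg7, of cytotoxic granules, read 4.67 and 4.97 in double-deficient hearts and 7.80 and 6.93 in Trex1-/- STING+/- hearts (-2.55 ± 0.33, limma adjusted p = 0.0051). Cd3d, a chain of the T cell receptor complex, was not well above background without STING (4.38 and 4.39, against 6.99 and 6.14, at least 3.05-fold lower). Of 3 measured B cell markers Cd72 was lower, at 5.43 and 5.23 against 10.06 and 7.78 (-3.59 ± 0.59, limma adjusted p = 0.0161). None of 5 neutrophil or 6 dendritic cell markers was called by limma, and at an unadjusted p under 0.05 the counts were 0 and 1. Of 7 mast cell markers 1 was lower and 1 higher, with a median of 0.47 and 2 negative differences. At an unadjusted p under 0.05 the counts were 1 lower and 3 higher, and 5 of the 7 were detected on neither STING+/- array. Hdc, which makes histamine, fell, at 6.33 and 7.13 in double-deficient hearts and 9.43 and 8.63 in Trex1-/- STING+/- hearts. Cpa3, the mast cell carboxypeptidase, rose, at 6.33 and 7.00 against 4.49 and 4.65, at least 3.36-fold higher. The calls of Nkg7, Cd3d, Hdc and Cpa3 were lost without array 1 of the STING+/- group, those of Cd3d, Cd72 and Cpa3 without array 2 of the double-deficient group, and that of Cpa3 also without array 2 of the STING+/- group, where 5 T and NK cell markers were called.

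MHC class II genes, expressed by antigen-presenting cells, gave 2 called of 11, both lower, and a median of -1.21. The called genes were Ctss and Ifi30, which process antigen in the endosome. Ctss, the protease cathepsin S, read 5.58 and 6.19 in double-deficient hearts and 8.26 and 7.48 in Trex1-/- STING+/- hearts (-1.99 ± 0.37, limma adjusted p = 0.0302). Ifi30, a thiol reductase, read 6.82 and 7.11 against 8.42 and 7.93. Both calls were lost when array 1 or array 2 of the double-deficient group, or array 1 of the STING+/- group, was left out.

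Of the cell cycle list 2 of 14 genes were called lower. All 14 measured cell cycle genes had a negative difference (median -1.58, or -1.51 with undetected members at their bound), and 12 had an unadjusted p under 0.05. Of the 14, 6 were detected on neither double-deficient array, so the falls of these 6 are only bounds. Cdk1, the mitotic kinase, was not well above background without STING (4.87 and 4.78, against 7.87 and 6.66 in Trex1-/- STING+/- hearts, at least 4.95-fold lower). Nusap1, which bundles spindle microtubules, read 5.09 and 5.08 in double-deficient hearts and 7.34 and 6.80 in Trex1-/- STING+/- hearts (-1.98 ± 0.32, limma adjusted p = 0.0127). Of 12 cell death genes Casp1, the inflammasome protease, and Mlkl, the effector of necroptosis, were lower. Mlkl read 6.27 and 6.37 against 8.35 and 7.74, while a second Mlkl probe differed by -0.15. Casp1 read 7.63 and 7.85 against 9.98 and 9.38. None of these 4 was called without array 2 of the double-deficient group or without array 1 of the STING+/- group, and Casp1 was also lost without array 1 of the double-deficient group. Without array 2 of the STING+/- group 9 cell cycle genes were called.

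**Figure D3:**
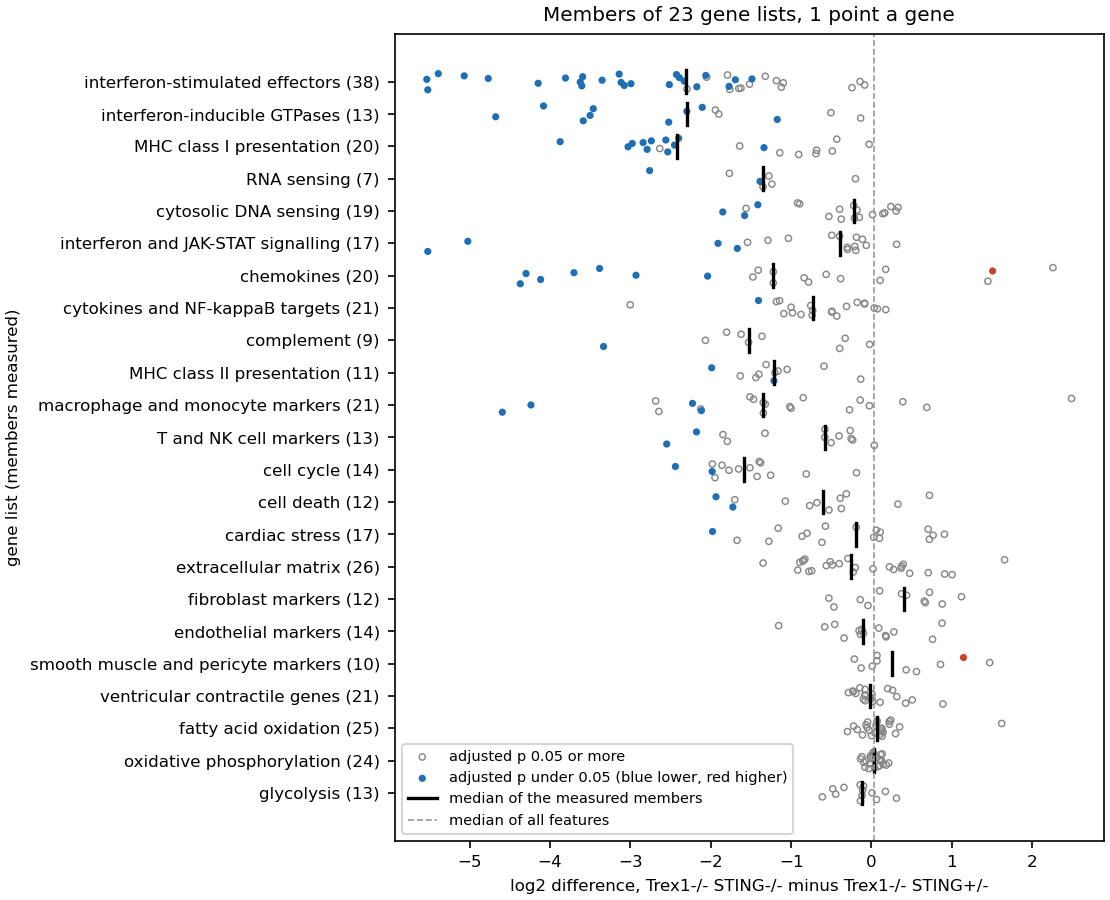
Log2 difference between double-deficient and Trex1-/- STING+/- hearts (horizontal axis) for every measured member of 23 gene lists (rows, number measured in brackets), filled where limma's adjusted p was under 0.05, with each list's median as a black bar. The medians of interferon-stimulated effectors, GTPases and MHC class I lie between -2.43 and -2.30, and those of the ventricular contractile, fatty acid oxidation and oxidative phosphorylation lists within 0.07 of 0.

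The working muscle of the heart gave no call. None of 21 ventricular contractile genes, 25 of fatty acid oxidation, 24 of oxidative phosphorylation or 13 of glycolysis was called by limma, and at an unadjusted p under 0.05 the counts were 1, 1, 0 and 0. Their medians were -0.02, 0.07, 0.03 and -0.12. Many of these transcripts lie near the top of the arrays' range, where changes may be compressed: Tnnc1, cardiac troponin C, read 15.78 on both double-deficient arrays and 15.75 and 15.78 on the Trex1-/- STING+/- arrays. Pfkm, the muscle phosphofructokinase, lies lower in the range and read 13.98 and 13.96 in double-deficient hearts and 13.87 and 14.06 in Trex1-/- STING+/- hearts. Of 26 extracellular matrix genes limma called 0 and 7 had an unadjusted p under 0.05, 6 of them lower. Of 17 cardiac stress genes 1 was called, which was Ctss again, while Nppa, the atrial natriuretic peptide gene, read 15.03 and 15.68 against 15.35 and 15.30. Of 12 fibroblast and 14 endothelial markers limma called 0, with 2 and 2 at an unadjusted p under 0.05. At 2 arrays a group, these counts do not show that the lists were the same in both groups.

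Of the 22 features that rose, 17 had a gene symbol. Lrrc2, a leucine-rich repeat gene of muscle, read 11.02 and 10.25 in double-deficient hearts and 4.44 and 6.65 in Trex1-/- STING+/- hearts (5.09 ± 0.56, limma adjusted p = 0.00193). Epm2aip1, which encodes a partner of the glycogen phosphatase laforin, read 8.33 and 8.38 against 5.08 and 5.37 (3.13 ± 0.26, limma adjusted p = 0.000513). The other 4 Epm2aip1 probes gave smaller differences, of 0.59, 0.60, 0.99 and 1.13. Both genes lie on chromosome 9, as does Trex1, with 50 and 56 protein-coding genes between each and Trex1 in the GRCm38.p6 gene order. Among the 121 protein-coding genes from 60 before to 60 after Trex1, 71 were measured, of which these 2 were higher and Uba7, the activating enzyme of ISG15, was lower. Across the other groups, Lrrc2 read 4.60 and 4.54 in Trex1-/- STING+/+ hearts, 11.44 and 10.88 in Trex1+/+ STING-/-, 11.68 and 11.71 in Trex1+/+ STING+/- and 4.70 and 4.57 in Trex1+/+ STING+/+ hearts. Epm2aip1 read 4.63 and 4.75, 9.33 and 9.28, 8.26 and 8.84, and 5.34 and 4.68 in the same 4 groups. For both genes the arrays thus fell into 6 high and 6 low, and the low ones included both STING+/+ groups.

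The other rises were smaller and less stable. Inmt, an amine methyltransferase, read 11.79 and 12.89 in double-deficient hearts and 9.09 and 9.66 in Trex1-/- STING+/- hearts (2.96 ± 0.59, limma adjusted p = 0.0427). Reln, the extracellular glycoprotein reelin, read 7.86 and 7.55 against 5.47 and 5.39 (2.28 ± 0.31, limma adjusted p = 0.00566). Ppl, the junctional protein periplakin, read 7.20 and 7.95 against 5.30 and 5.59, and Kcna6, a voltage-gated potassium channel, 6.31 and 6.89 against 5.05 and 4.68. Acta2, smooth muscle actin and the 1 called gene of 10 smooth muscle and pericyte markers, read 13.30 and 13.44 in double-deficient hearts and 12.15 and 12.30 in Trex1-/- STING+/- hearts (1.14 ± 0.22, limma adjusted p = 0.0398). Separation of the groups was part of the rule that named the largest rises. Lad1, Sox10, Angptl1, Cbx7 and Camk2n1 rose by 1.19 to 2.06 on the log2 scale, and Lrrn4cl was at least 2.31-fold higher. Without array 2 of the double-deficient group, which had raised atrial and adipocyte markers, 3 features were called higher in all, and of the genes named here among the rises Lrrc2, Epm2aip1 and Reln remained. With the atrial mean as a covariate 6 features were called higher, against 22 without it. Lrrc2, Epm2aip1, Reln, Ppl and Kcna6 were then still called, and Inmt, Cpa3, Lad1, Ccl21a, Sox10, Angptl1, Cbx7, Lrrn4cl, Camk2n1 and Acta2 were not.

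The 2 Trex1-/- STING+/- arrays differed from each other. Of the 189 lowered features, 176 were higher on array 1 than on array 2 of this group, by a median of 0.85. The double-deficient arrays differed by a median of 0.08 over the same 189 features. The count and these medians were not taken over all features. Over all features the replicates correlated at 0.978 in double-deficient hearts and 0.982 in Trex1-/- STING+/- hearts.

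**Figure D4:**
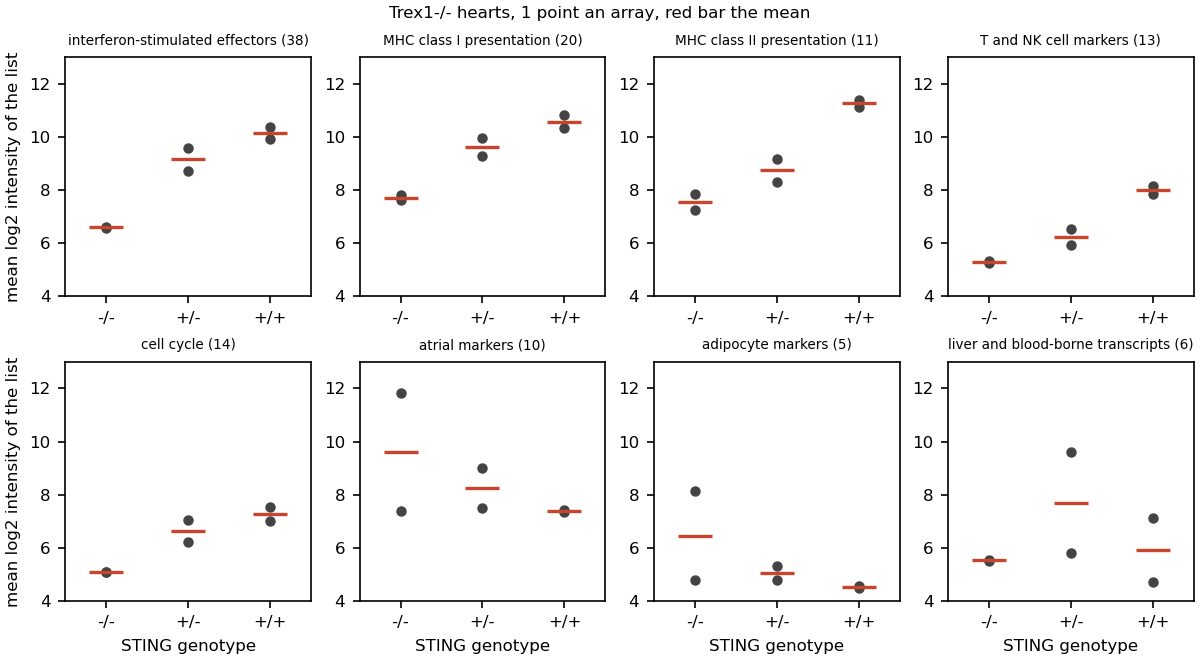
Mean log2 intensity of 8 gene lists (vertical axis, members measured in brackets) in Trex1-/- hearts with STING-/-, +/- and +/+ (horizontal axis), 1 point an array and a red bar for the mean of 2. Interferon-stimulated effectors average 6.59, 9.16 and 10.14, T and NK cell markers 5.28, 6.24 and 8.00, and the atrial and adipocyte lists show array 2 of the double-deficient group apart.

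The Trex1-/- STING+/+ hearts place these levels on a scale of STING alleles, with values set side by side since the groups share arrays with the comparison. The median level of the 189 lowered features was 5.79 in double-deficient hearts, 8.61 with STING+/- and 10.26 with STING+/+. In 182 of the 189 the STING+/+ mean was above the STING+/- mean, and in 142 both STING+/+ arrays were above both STING+/- arrays. These counts were not made over all features, so they do not set the lowered features apart from the rest. The lists differed in where their largest step lay. Interferon-stimulated effectors averaged 6.59, 9.16 and 10.14 at STING-/-, +/- and +/+, and MHC class I presentation 7.71, 9.62 and 10.58. MHC class II presentation averaged 7.55, 8.75 and 11.27, and T and NK cell markers 5.28, 6.24 and 8.00. For the first 2 lists the step between STING-/- and +/- was the larger, at 2.57 and 1.91, and for the other 2 the step between +/- and +/+, at 2.53 and 1.76. Single genes differed in whether the STING+/- and STING+/+ arrays overlapped. Isg15 read 12.85 and 11.68 with STING+/- and 13.78 and 12.36 with STING+/+, which overlap. Ccl4 read 9.14 and 7.42 with STING+/- and 11.89 and 12.04 with STING+/+, which do not. Ccl4 was not well above background at STING-/-, so its lower step is only a bound. No test was made between lists. Detected on neither double-deficient array were 10 of 38 effectors, 4 of 20 class I genes, 1 of 11 class II genes and 6 of 13 T and NK cell markers. The step between STING-/- and +/- may therefore be cut short by background, and more so in some lists than in others. Array 2 of the STING+/+ group carried Xist and the other 5 arrays of this scale Eif2s3y, and the part of this in the levels was not tested. The same array 2 was also 1 of 2 arrays of the series with a low reading of Hnrnpa2b1, a gene read as a check of the arrays.

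Removing the same allele from Trex1-intact hearts gave 5 calls (0.0321% of 15561): Scd1, Ucp1, Nppa and Elovl6 were higher in Trex1+/+ STING-/- hearts, and 1 unnamed feature was lower. At an unadjusted p under 0.05 limma counted 2236. With only the groups compared in the fit, the count here was 105, of which 96 were higher, against 75 for the Trex1-deficient pair, so the order of these 2 counts turned round. Array 1 of Trex1+/+ STING-/- was 1 of the 4 arrays with Xist, whereas both Trex1+/+ STING+/- arrays carried Eif2s3y. Array 1 of Trex1+/+ STING+/- was the other array with a low reading of Hnrnpa2b1. The 189 features lowered in Trex1-deficient hearts had a median of -0.10 in this comparison, which shares no array with it, and 0 of them were called. Isg15 read 6.21 and 6.80 in Trex1+/+ STING-/- hearts and 7.39 and 7.29 in Trex1+/+ STING+/- hearts (-0.83, limma adjusted p = 0.46). Apol9a read 4.48 and 4.85 against 4.46 and 4.65.

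The difference between these differences was tested directly, and limma called 40 features (0.257%), 38 with a more negative change in Trex1-deficient hearts and 2 with a more positive one. Among genes with a symbol and no predicted name, the most negative was Plac8 at -5.60 ± 0.78 (limma adjusted p = 0.0223), followed by Apol9a at -5.50 ± 0.45 (limma adjusted p = 0.00169), Usp18 at -4.86 ± 0.51 and Isg15 at -4.70 ± 0.70. Where a probe was at background, as Apol9a was, these fitted values are no bounds. Lrrc2 (5.63 ± 0.80, limma adjusted p = 0.0232) and Epm2aip1 (2.38 ± 0.37, limma adjusted p = 0.0388) were the 2 more positive ones. Ucp1, Elovl6 and Nppa were among the 38, each with a log2 difference within 0.23 of 0 in Trex1-deficient hearts. Those 3 genes belong to fat and atrium, and both Trex1+/+ STING-/- arrays had raised atrial (11.24 and 11.85) and adipocyte markers (8.94 and 9.19). The count was 3 with the atrial mean as a covariate, and leaving out single arrays gave 3 (without Trex1+/+ STING-/- array 2) to 116 (without Trex1-/- STING+/- array 2).

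**Figure D5:**
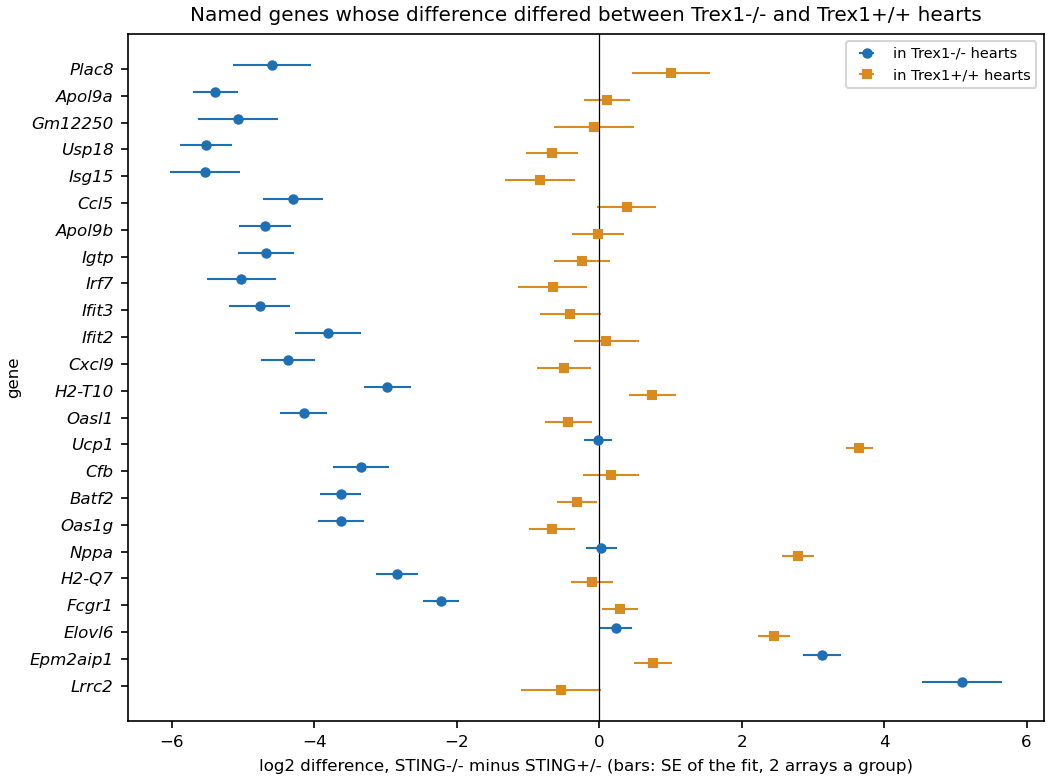
Log2 difference between STING-/- and STING+/- hearts (horizontal axis, bars the SE of the fit) in Trex1-/- hearts (blue circles) and Trex1+/+ hearts (orange squares) for the 24 named genes whose difference of differences passed the test. The 19 genes lowered in Trex1-/- hearts lie between -5.53 and -2.23 there and between -0.83 and 1.01 in Trex1+/+ hearts, and Ucp1, Nppa and Elovl6 lie at 2.45 to 3.65 in Trex1+/+ hearts only.

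Against Trex1+/+ STING-/- hearts, double-deficient hearts differed in 2 features (0.0129%), Ucp1 and Elovl6, both lower, with 268 at an unadjusted p under 0.05. Ucp1, the uncoupling protein of brown fat, read 4.28 and 4.34 in double-deficient hearts and 8.15 and 7.72 in Trex1+/+ STING-/- hearts. Elovl6, a fatty acid elongase, read 4.70 and 5.14 against 7.06 and 6.84. The 189 features had a median difference of -0.03 here and 0 of them were called. Isg15 read 6.60 and 6.86 in double-deficient hearts and 6.21 and 6.80 in Trex1+/+ STING-/- hearts, and Cxcl10 4.45 and 4.53 against 4.43 and 4.42 in the same order. This comparison shares the double-deficient arrays with the main one, and 2 arrays a group do not show that the levels were the same. Without array 2 of the double-deficient group 44 features were called.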

How the data were processed

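Total RNA of mouse hearts was extracted with silica columns and checked by capillary electrophoresis, and biotinylated cRNA was hybridised to Illumina bead arrays, per the labels' protocols. The deposited table holds probe intensity values on a linear scale, not normalized per the file headers, from 50.1 to 65008.3. Beside each intensity the authors deposited a detection score that rose with signal (rank correlation 0.979 to 0.988), so 1 minus it was used as the detection p. The authors' processed values, deposited on a log2 scale and centred per probe, served as an alternative, and their normalization is not stated. On 5948 bright probes the largest difference between them and quantile-normalized log2 signals centred per probe was 0.0112. This alternative is thus nearly the same as quantile normalization alone.

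Signals were corrected and quantile normalized with neqc (offset 16) in limma 3.58.1 (R 4.3.3). A probe had to be detected (p under 0.05) on 2 or more of the 12 arrays, which 22810 of 45281 were, and the brightest probe of each gene was used, which left 15561 features, 12080 with 1 symbol. Of all probes, 34885 had 1 symbol in the platform annotation, 18 several and 10378 none, and 34807 were updated through the GRCm38.p6 gene table. All 6 groups of 2 arrays entered a single limma fit (6 residual degrees of freedom), with Benjamini-Hochberg adjustment over all features and a threshold of 0.05. A fold written "at least" sets the dim group at the higher of its own signal and the lowest detected signal of each array. Arrays 1 and 2 of a group are numbered in accession order. The precision is limited by the number of arrays. Replicate arrays correlated at 0.978 and 0.982 in the 2 groups of the main comparison, where 40.45 to 44.57% of probes were detected.

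Genes were named by rule: the 20 largest falls and 15 largest rises with 1 symbol and no overlap between groups, predicted names passed over, up to 4 called members of each of 37 lists or the 2 brightest where none was called, the 5 largest differences of each other comparison, and the targeted and tissue-content genes. The members and lists were chosen with earlier results of these data known. The fit was tested on simulated data. Alternatives covered normalization, filter, probe choice, prior, array weights, arrays in the fit and an atrial covariate, and the fit on the 6 Trex1-deficient arrays was chosen after seeing the data.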

Additional observations from a re-analysis of the deposited data

Results flagged for a closer look

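The test of whether the STING-/- against STING+/- difference itself differed between Trex1-/- and Trex1+/+ hearts passed for 40 features, and the values below are that difference of differences on the log2 scale (Trex1-/- minus Trex1+/+). Among genes at work in antiviral defence it was -4.86 for Usp18, -4.70 for Isg15, -4.37 for Irf7, -4.36 for Ifit3, -3.91 for Ifit2, -3.71 for Oasl1 and -2.96 for Oas1g. The GTPase genes Igtp and Gm12250 stood at -4.44 and -4.995, and the apolipoprotein L genes Apol9a and Apol9b at -5.50 and -4.67. Plac8 stood at -5.60, Fcgr1 at -2.525, Batf2 at -3.32 and Cfb at -3.51. The chemokines Ccl5 and Cxcl9 stood at -4.68 and -3.87, and the class I genes H2-T10 and H2-Q7 at -3.72 and -2.74. Ucp1 (-3.67), Nppa (-2.76) and Elovl6 (-2.22) were flagged through a rise in Trex1+/+ STING-/- hearts, on arrays with raised atrial and adipocyte markers, whose part was not tested. Epm2aip1 at 2.38 and Lrrc2 at 5.63 were the only 2 positive features among the 40.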

How the results depend on the processing

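With 2 arrays a group, many calls turned on single arrays. Between double-deficient and Trex1-/- STING+/- hearts 211 features were called, and leaving out 1 array at a time gave 65 to 323. Without array 1 of the double-deficient group 61.6% of 294 calls were higher, against 10.4% of the 211. The count was 110 with no filter, 384 with array weights, 75 with only the groups compared, 118 with the atrial mean as a covariate and 79 with only the 6 Trex1-deficient arrays. Other alternatives gave 143 to 293. Of the interferon-stimulated effectors 24 were called, against 12 to 26 on leaving out 1 array, 15 with no filter, 13 with only the groups compared and 13 with only the 6 Trex1-deficient arrays. No named gene called in the main comparison changed sign in any of 16 alternatives, and 19 of 62 were called in all of them, among them Isg15, Usp18, Irf7, Igtp, Nlrc5, Cxcl9, Fcgr4 and Epm2aip1.

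Between Trex1+/+ STING-/- and Trex1+/+ STING+/- hearts the 5 calls became 1 with the stricter filter, 3 with the probe of largest variance, 8 with a trended and robust prior, 19 with array weights, 105 with only the groups compared and 1 with the atrial covariate, and 4 to 6 on leaving out 1 array. The 40 calls for the difference of differences became 21 with quantile normalization alone, 21 with the authors' values, 5 with no filter, 73 with array weights, 23 with only the groups compared, 3 with the atrial covariate, 108 without array 2 of both Trex1-/- groups compared and 6 without the 2 arrays with low Hnrnpa2b1. Leaving out 1 array gave 3 to 116. Between double-deficient and Trex1+/+ STING-/- hearts the 2 calls became 1 with quantile normalization alone, 1 with the authors' values, 1 with no filter, 0 with the stricter filter (limma, 181 at an unadjusted p under 0.05), 4 with only the groups compared, 1 with the atrial covariate, 27 without array 2 of both Trex1-/- groups compared, 8 without the low-Hnrnpa2b1 arrays and 1 to 44 on leaving out 1 array. Both Trex1+/+ STING-/- arrays, with raised atrial markers, stayed in the fits without array 2 of both Trex1-/- groups compared. The causes were not tested. The 2 arrays with low Hnrnpa2b1, a gene read as a check of the arrays, were array 2 of Trex1-/- STING+/+ and array 1 of Trex1+/+ STING+/-. A lone array left in a group was assumed to vary like the other groups. No paired analysis was possible because the labels give no shared replicate numbers. Probes at background give only bounds.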

Other observations

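Of the 163 genes called lower, 88 belonged to none of the 37 lists, and the families described here were grouped after their values were seen. Histone genes grouped by symbol, mostly of the kind transcribed when DNA is copied, had 8 of 45 called lower and 0 higher. Of the 45 differences 41 were negative, with a median of -0.63. H2ac12 read 5.81 and 6.38 in double-deficient hearts and 9.45 and 8.70 in Trex1-/- STING+/- hearts (-2.98 ± 0.38, limma adjusted p = 0.00423). Histone genes are near copies of each other and their probes may share signal. Genes of the integrated stress response, which amino acid shortage or viral RNA can trigger, had 3 of 15 lower and 0 higher (median -0.48). Mthfd2, a mitochondrial folate enzyme, read 5.90 and 7.14 in double-deficient hearts and 10.23 and 9.63 in Trex1-/- STING+/- hearts (-3.42 ± 0.52, limma adjusted p = 0.00965). Ddit3, the transcription factor CHOP, read 8.38 and 8.49 against 10.69 and 10.37 in the same order, whereas Atf4, the regulator of this response, read 10.56 and 10.54 against 10.75 and 10.48.

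Apolipoprotein L genes had 4 of 6 lower, PYHIN genes, which include DNA sensors, 2 of 8, Trim genes 3 of 35 and Schlafen genes 1 of 4, with 0 higher in each. Of 10 thermogenic and lipogenic genes limma called 0, with 0 lower at an unadjusted p under 0.05. Single genes in none of the lists included Cd274, the checkpoint ligand PD-L1, which fell by 2.49 on the log2 scale (limma adjusted p = 0.0313), Ch25h, which makes 25-hydroxycholesterol and fell by 3.14 (limma adjusted p = 0.0173), and Ubd, an ubiquitin-like modifier, which fell by 3.22 (limma adjusted p = 0.00917). Among clock genes limma called 0 of 13, while 8 had an unadjusted p under 0.05, 6 higher and 2 lower in double-deficient hearts. The hour at which hearts were taken is not stated in the labels.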
